A study of Lepidium sativum with 107 samples.

Results

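Endo-beta-mannanases and a polygalacturonase of cell separation were followed through garden cress (Lepidium sativum) germination. The genes were MAN2 (AT2G20680), MAN7 (AT5G66460) and ADPG2 (AT2G41850), taken as the probe sets that the deposited table files under these Arabidopsis locus codes, which gave 3 of 13895 probe sets. A value therefore stands for the cress RNA that these probes caught, and transcripts of near-identical relatives could add to it. The symbols are those of the Arabidopsis genes.

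Seeds of the FR14 line were sown in water at 24 °C in continuous light and dissected by hand. The micropylar endosperm, a cap of tissue over the root tip, and the radicle with the lower hypocotyl (called radicle from here on) were taken at 9 stages. These were 1, 3, 5, 7, 10, 13 and 16 h after sowing, with 7 h seeds split into those with intact and ruptured testa (seed coat) and 16 h seeds into those with intact and ruptured endosperm. The non-micropylar endosperm and the cotyledons were taken at 3 h, at 7 h with intact testa and at 13 h, and dry seeds were sampled whole, as a part with radicle and cap, and as a part with cotyledon and non-micropylar endosperm. The arrays made 27 groups, 4 per group except 3 in the last dry part, whose replicate 2 is not analysed here. Every array of an imbibed tissue holds a pool of 100 organs, or 50 for cotyledons, and no pool size is given for the dry samples. All seeds were of 1 line, with no mutant or hormone treatment, and a dry part mixes tissues that the later samples separate.

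Endo-beta-mannanases cut the mannan backbone that makes up much of the wall of endosperm cells in many seeds. In Arabidopsis, genes of this family including MAN7 are expressed in the micropylar endosperm before the radicle emerges. Polygalacturonases cut the pectin that glues neighbouring cells together, and in Arabidopsis ADPG2 takes part in the opening of pods and the shedding of floral organs. Weakening of the micropylar endosperm by wall-degrading enzymes is a known step of germination in cress and its relatives.

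Levels are log2 values that the authors made with RMA, a method that summarises the probes of a set and equalises the arrays, so a change is one against the bulk of all transcripts on the array. RMA shrinks differences of dim probe sets and gives no detection call. The 25th percentile of all group means, 3.59, served as a limit under which a level was treated as not clearly above background. Differences were tested with limma over all arrays and all probe sets, and passed at a Benjamini-Hochberg adjusted p under 0.05. An error after a level is an SD over replicates and an error after a change is the limma standard error. Whether replicates were separate sowings of seed is not given, and the p-values then cover no more than the spread of these samples, which may be technical. Since tissues were measured in bulk, fewer cells of a type and less RNA per cell cannot be told apart.

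The tissue labels were set against markers. The endosperm markers EPR1 and EXPA2 had mean levels of 6.31 to 6.51 and 9.17 to 10.05 in both endosperm regions at 7 h, against 4.21 and 3.70 in cotyledons at that time. At 16 h EXPA2 was at 9.61 and 9.78 in micropylar endosperm and at 3.62 and 3.57 in radicle. EXPA2 was at 4.82 in micropylar endosperm at 1 h, so at that stage the identity rests on EPR1 at 9.42. From there EPR1 fell to the ruptured 16 h samples, where it was still called higher than in radicle. Of 8 root and root cap markers 6 were measured, and their summed linear level was 158.0 to 206.9 in radicle at 16 h against 73.7 to 130.1 in micropylar endosperm. Micropylar endosperm replicate 2 at 7 h with ruptured testa stood apart at 170.1, where the other replicates of that group were at 78.2 to 99.1. Of 6 cotyledon markers 5 were measured, and non-micropylar endosperm replicate 4 at 13 h stood apart in their sum at 228.3, where the others were at 84.7 to 111.7. That array also had the lowest endosperm marker sum of its group, 863.7 against 1413 to 1614. Cotyledon replicate 2 at 13 h had a cotyledon marker sum of 235.6, against 384.9 to 481.5 in its group. Its endosperm marker sum was 40.14, against 22.15 to 27.21. Its median r with the other replicates of its group, 0.9048, was the lowest of all arrays. Of 4 seed coat markers TT10 and TT12 were measured, with group means of 3.36 to 3.92 and 3.85 to 5.31.

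The genes varied over modest ranges. Single arrays ran from 3.54 to 5.16 for MAN2, from 3.37 to 4.44 for MAN7 and from 3.36 to 6.23 for ADPG2. Among all probe sets, the SD of the 27 group means was at percentile 33.1 for MAN2, 20.7 for MAN7 and 57.4 for ADPG2. MAN2 and ADPG2 were above the limit in all group means, and MAN7 was under it only in cotyledons at 3 h, with a mean of 3.58. When groups were ordered by mean, every pair of neighbours overlapped in their replicates for MAN2 and MAN7, and for ADPG2 all but 1 pair did.

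**Figure D1:**
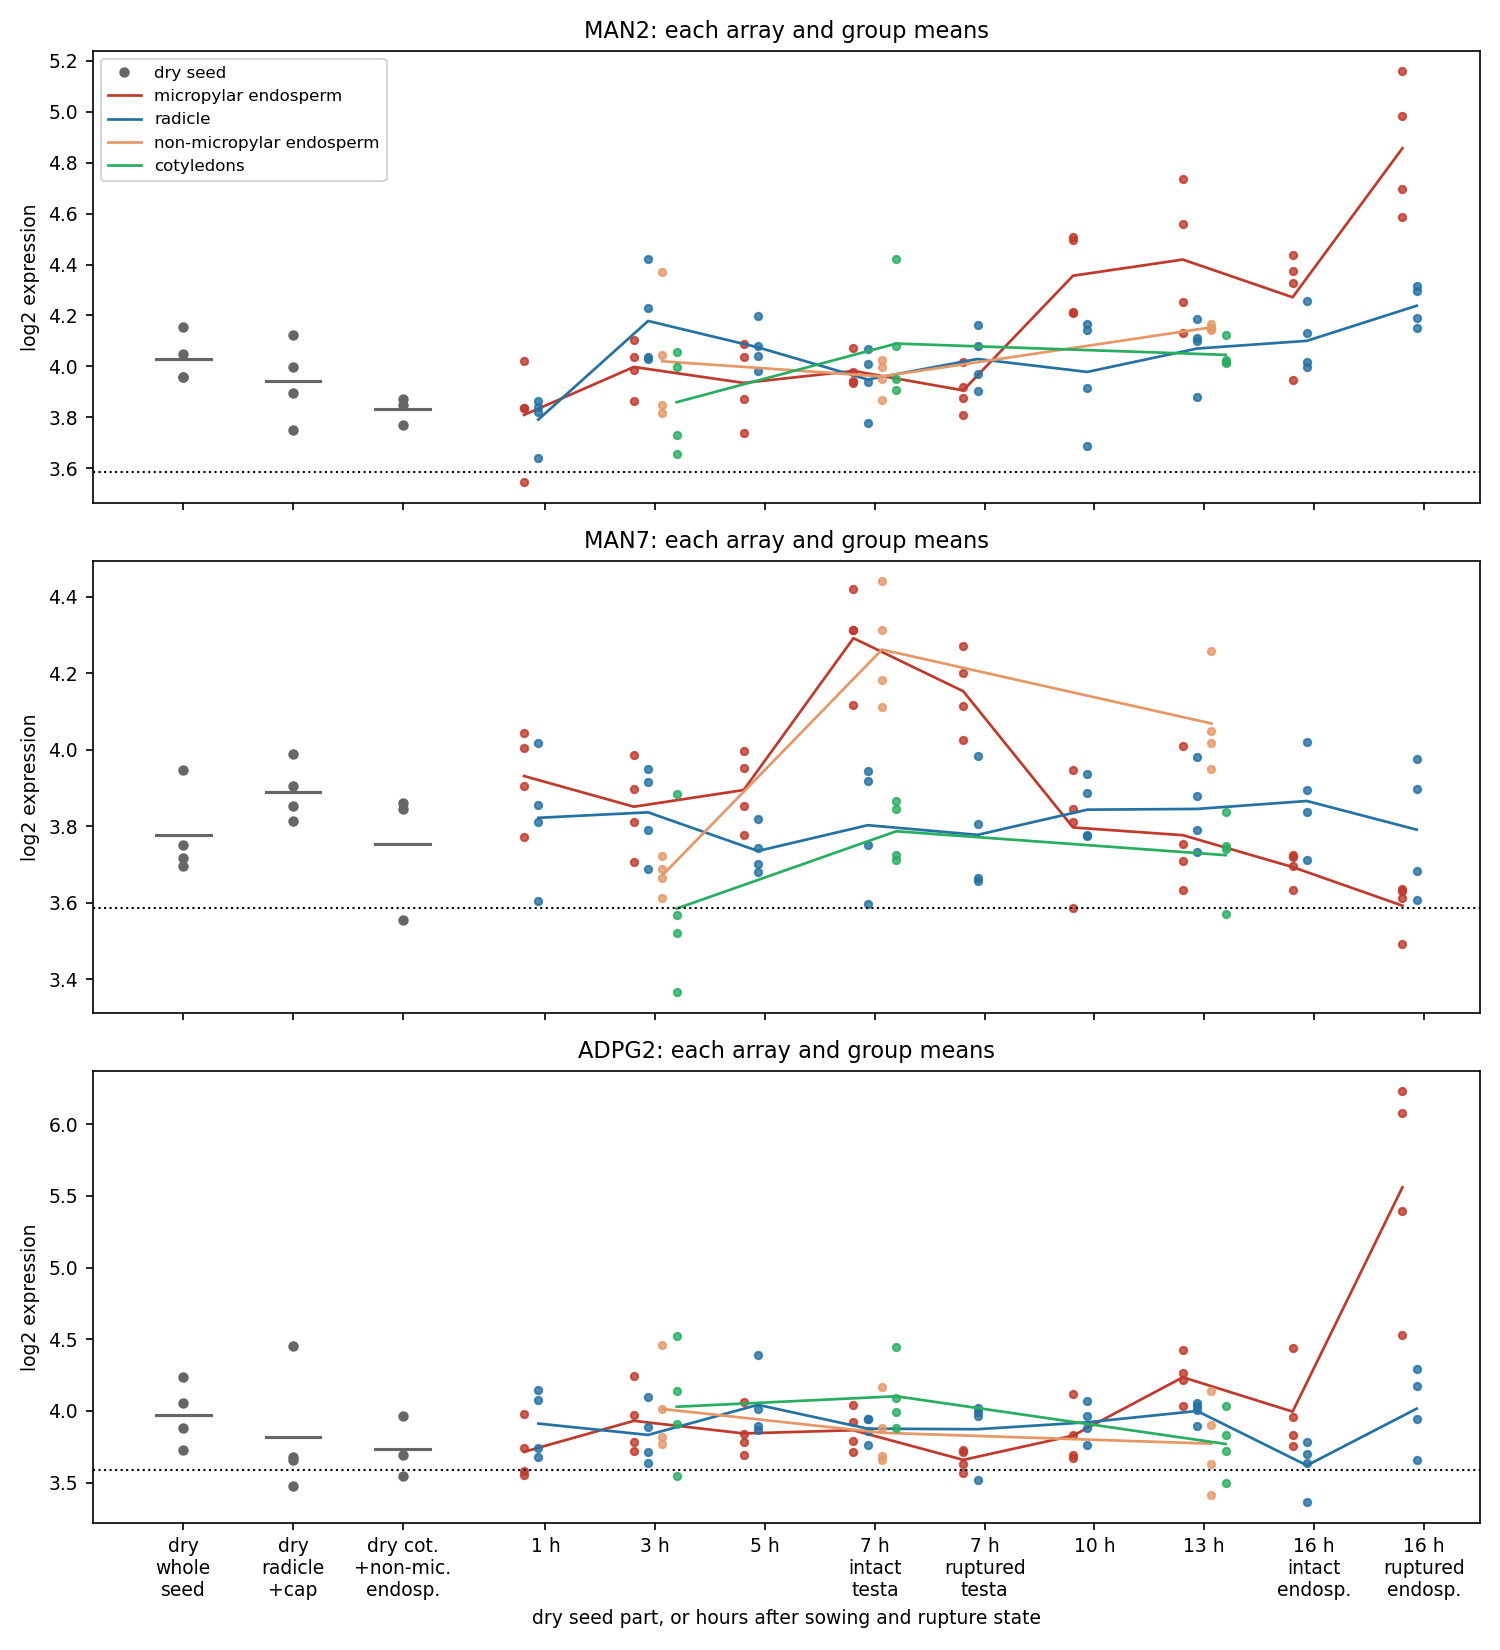
The log2 level of MAN2, MAN7 and ADPG2 on each array (points) with group means (lines, or bars for dry seed) against stage, by tissue, with the limit of 3.59 dotted. ADPG2 and MAN2 have their highest group means in micropylar endosperm with ruptured endosperm at 16 h, at 5.56 and 4.86, while MAN7 is highest in both endosperm regions at 7 h with intact testa, at 4.29 and 4.26.

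MAN2 rose in the micropylar endosperm in separate steps, between testa rupture and 10 h and again with endosperm rupture. Its replicates were at 3.88, 3.92, 3.81 and 4.02 at 7 h with ruptured testa and at 4.21, 4.51, 4.21 and 4.50 at 10 h. The groups did not overlap, and the mean rose from 3.91 ± 0.09 to 4.36 ± 0.17 (SD, n = 4), a log2 change of 0.45 ± 0.12 (adjusted p = 0.01207). Among all probe sets, 3.17% changed at that step. The rise did not pass without replicate 3 of the earlier group (0.42), or without replicate 2 (0.40) or 4 (0.40) of the later one. Without the array that stood apart in root markers it was 0.45 (adjusted p = 0.02998). The root cap marker SMB rose and the endosperm marker EPR1 fell at the same step, and their part in the result was not tested.

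No step passed for MAN2 from there to 13 h, at 4.42 ± 0.28, or on to 16 h in seeds whose endosperm was intact, at 4.27 ± 0.22 (adjusted p = 0.9997 and 0.6719). In the intact seeds at 16 h its replicates were at 4.44, 4.33, 4.37 and 3.95, and in seeds with ruptured endosperm at 4.59, 4.70, 5.16 and 4.99. Every ruptured sample lay above every intact one. The change was 0.59 ± 0.12, with a 95% interval of 0.35 to 0.82 (adjusted p = 0.0001876, against 4.3% of all probe sets called). Leaving out any single array kept the call, but with only the arrays of this comparison in the fit the adjusted p was 0.2264. That smaller fit called 30 probe sets in all, against 598.

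In the radicle, MAN2 rose early, between 1 h and 3 h. Its replicates went from 3.86, 3.84, 3.64 and 3.82 at 1 h to 4.03, 4.04, 4.23 and 4.42 at 3 h, without overlap. This change of 0.39 ± 0.12 passed (adjusted p = 0.008939) at a step where 22.8% of all probe sets did. It was lost without radicle replicate 4 at 3 h (0.31) and with only these arrays in the fit (adjusted p = 0.1053). Of the root markers PIN2, PLT1 and SCR were called at the same step, 2 of them higher and 1 lower, and EPR1 fell; their part in the result was not tested. None of the other 7 radicle steps passed for MAN2, including endosperm rupture, where the interval of the change ran from -0.09 to 0.37. Over all radicle steps 5.55% of all probe sets passed.

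MAN7 had its highest levels in both endosperm regions at 7 h, around testa rupture. In micropylar endosperm its replicates were at 3.78, 3.95, 3.85 and 4.00 at 5 h and at 4.42, 4.12, 4.31 and 4.31 at 7 h with intact testa. All 7 h samples lay above all 5 h samples. The rise was 0.40 ± 0.10, or 1.32-fold (adjusted p = 0.002529, with 7.88% of all probe sets called), and it held without any single array, at 0.35 to 0.46. At the same step EXPA2, an expansin used here as an endosperm marker, also rose, and its part in the result was not tested. The summed endosperm markers were lowest in replicate 1 at 5 h, at 175 against 446.5 to 538.7 in the others of its group. That array also had the lowest MAN7 value of its group, 3.78.

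In the non-micropylar endosperm, MAN7 was at 3.61, 3.66, 3.69 and 3.72 at 3 h and at 4.31, 4.44, 4.18 and 4.11 at 7 h. This was a change of 0.59 ± 0.10, or 1.51-fold (adjusted p = 3.686e-07), again without overlap, at a step where 31.9% of all probe sets changed. At the same step EXPA2 rose, and EPR1 and the seed coat marker TT12 (from 4.41 to 3.85) fell, and their part in the result was not tested. Between the regions at 7 h, micropylar minus non-micropylar endosperm was 0.03 ± 0.10, with an interval from -0.16 to 0.22. In cotyledons the same interval of time gave 0.20 ± 0.10 (adjusted p = 0.1637), from a level of 3.58 that was under the limit, and it passed without cotyledon replicate 1 at 3 h (0.30, adjusted p = 0.03036).

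At testa rupture no change passed in limma for any of the genes, in either tissue, and of these 6 changes none had an unadjusted p under 0.05. For MAN7 in micropylar endosperm, the ruptured seeds were at 4.03, 4.20, 4.27 and 4.11 against the 7 h intact values above, a difference of -0.14 ± 0.10 (adjusted p = 0.549, interval -0.33 to 0.05). MAN2 differed by -0.08 ± 0.12 and ADPG2 by -0.21 ± 0.19 there. Of all probe sets, 6.33% changed in micropylar endosperm and 1.71% in radicle at testa rupture.

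After testa rupture MAN7 declined in the micropylar endosperm. By 10 h its replicates were at 3.95, 3.81, 3.58 and 3.84, all under those at 7 h with ruptured testa. The mean fell from 4.15 ± 0.11 to 3.80 ± 0.15 (SD, n = 4), a log2 change of -0.36 ± 0.10 (adjusted p = 0.01751), at the step at which MAN2 rose. The call did not hold without replicate 2 (-0.34) or 3 (-0.32) of the 7 h group or replicate 3 (-0.29) of the 10 h group, and the fit of these arrays only gave an adjusted p of 0.09008. Replicate 2 of the 7 h group is the array that stood apart in root markers. SMB and EPR1 moved at this step as given for MAN2, and their part was not tested here either.

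MAN7 stayed low in micropylar endosperm from then on, at 3.63, 3.72, 3.72 and 3.70 at 16 h with intact endosperm and at 3.63, 3.61, 3.63 and 3.49 with ruptured endosperm. The last group mean, 3.59, lay at the limit. Endosperm rupture changed it by -0.10 ± 0.10 (adjusted p = 0.8105). In the non-micropylar endosperm the replicates at 13 h were at 4.05, 4.26, 4.02 and 3.95, and the change from 7 h of -0.19 ± 0.10 did not pass (adjusted p = 0.1473). Of the 8 radicle steps none passed for MAN7, and none had an unadjusted p under 0.05. Over these steps 5.55% of all probe sets passed. The radicle means of MAN7 lay between 3.74 and 3.87.

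ADPG2 rose with endosperm rupture in the micropylar endosperm and showed no other called step in any tissue. At 16 h the seeds with intact endosperm were at 4.44, 3.95, 3.83 and 3.76, and those with ruptured endosperm at 5.40, 6.08, 4.53 and 6.23. The lowest ruptured sample, replicate 3, lay just above the highest intact one, and the other ruptured samples were higher than any other array of the series. Means were 4.00 ± 0.31 and 5.56 ± 0.78 (SD, n = 4), and the change was 1.57 ± 0.19 with an interval of 1.18 to 1.95, or 2.96-fold (adjusted p = 9.781e-10).

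The spread of ADPG2 among ruptured samples, an SD of 0.78, was larger than the residual SD of 0.28 that the fit shares over all groups. With only the arrays of this comparison in the fit the adjusted p was 0.1302, while the change stayed at 1.34 to 1.91 when single arrays were left out. The summed level of the root markers was 73.7 to 106.9 in the ruptured samples and 88.0 to 130.1 in the intact ones. None of the 6 was called. The 130.1 was intact replicate 4, the other intact samples being at 88.0 to 111.8. That array also had the lowest endosperm marker sum of its group, 408.8 against 721.6 to 1289. It held the lowest intact values of MAN2 (3.95) and ADPG2 (3.76), and both calls held without it. The endosperm markers were not called at this step either, and the part of tissue make-up in the result was not tested.

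Before endosperm rupture no step of ADPG2 passed in this tissue, where 7.86% of all probe sets passed over all steps. Means ran from 3.66 at 7 h with ruptured testa to 4.23 at 13 h, and the step from 10 h to 13 h, 0.41 ± 0.19, did not pass (adjusted p = 0.6571). In radicle the seeds with intact endosperm were at 3.78, 3.36, 3.70 and 3.63 and those with ruptured endosperm at 4.29, 3.66, 3.94 and 4.17. These groups overlapped, and the difference of 0.40 ± 0.19 did not pass (adjusted p = 0.2739, interval 0.01 to 0.78); of the 8 radicle steps of ADPG2 it was the only 1 with an unadjusted p under 0.05. Among all probe sets 5.44% changed in radicle at endosperm rupture.

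The change of ADPG2 at endosperm rupture was set against that in radicle in the same fit. Micropylar endosperm minus radicle gave 1.17 ± 0.27, interval 0.62 to 1.71 (adjusted p = 0.004071), where 2.66% of all probe sets passed. With the arrays of both tissues at 16 h only, the adjusted p was 0.3156. For MAN2 that difference of changes was 0.45 ± 0.16 (adjusted p = 0.1677), and for MAN7 -0.03 ± 0.14. At the step from 7 h with ruptured testa to 10 h the differences of changes were 0.50 ± 0.16 for MAN2 (adjusted p = 0.08482) and -0.42 ± 0.14 for MAN7 (adjusted p = 0.07503), neither of which passed. The MAN7 difference did pass without radicle replicate 3 at 7 h with ruptured testa (-0.49, adjusted p = 0.04279), with quantile normalization (-0.44) and with array weights (-0.39), and the MAN2 difference with array weights (0.53).

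In non-micropylar endosperm and cotyledons no step passed in limma for MAN2 or ADPG2. Of these 8 changes none had an unadjusted p under 0.05, while 13.6% to 31.9% of all probe sets changed at each step. MAN2 was at 4.15, 4.17, 4.14 and 4.15 in non-micropylar endosperm at 13 h, above its 7 h samples at 3.95, 4.00, 4.02 and 3.87, a difference of 0.19 ± 0.12 (adjusted p = 0.2518). ADPG2 in cotyledons was at 4.45, 4.09, 3.88 and 3.99 at 7 h and at 3.83, 4.03, 3.72 and 3.49 at 13 h, overlapping, with a difference of -0.33 ± 0.19 (adjusted p = 0.2551).

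Across tissues, 5 of 24 steps passed in micropylar endosperm, 1 of 24 in radicle and 1 of 12 in the other tissues. Over all probe sets the same steps gave 7.86%, 5.55% and 21.2%. Differences between these counts were not tested.

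**Figure D2:**
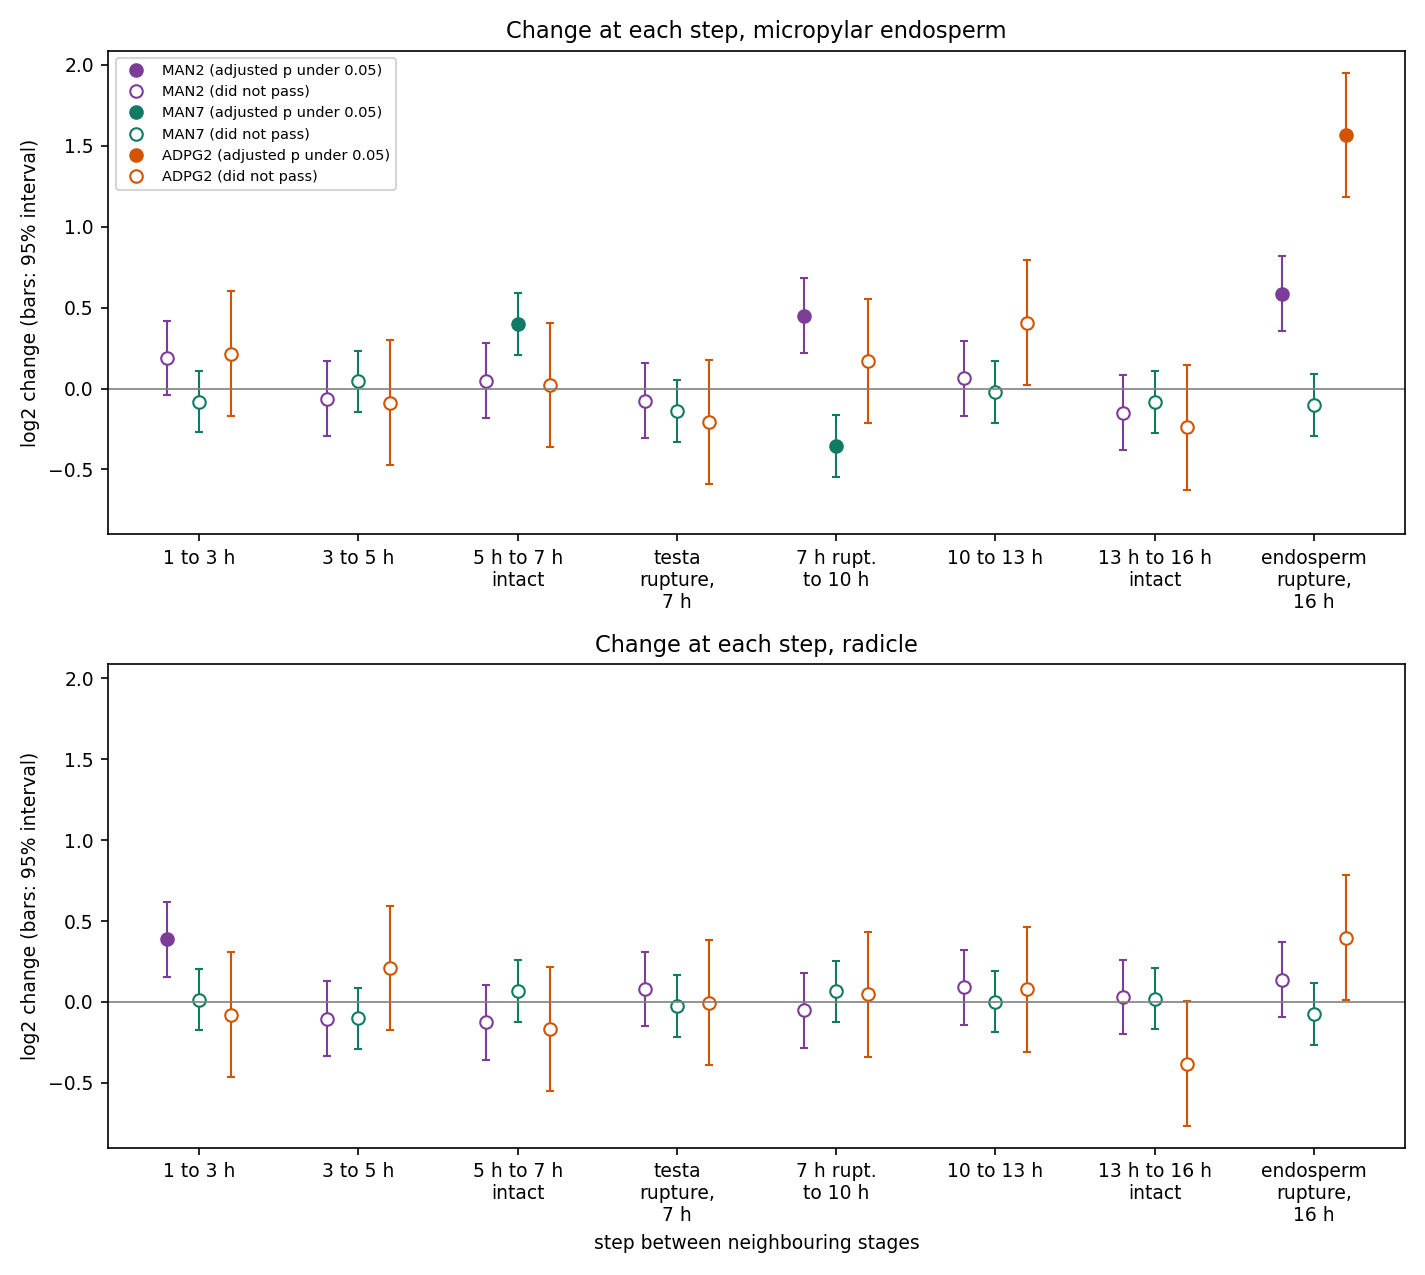
Log2 change of MAN2, MAN7 and ADPG2 at each of 8 steps between neighbouring stages in micropylar endosperm (top) and radicle (bottom), with 95% intervals. Filled points passed at an adjusted p under 0.05: 5 in micropylar endosperm, the largest being ADPG2 at endosperm rupture at 1.57, and 1 in radicle, MAN2 from 1 h to 3 h at 0.39.

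Micropylar endosperm and radicle of the same stage were compared next. Of 27 differences 6 passed, all with the higher level in the endosperm cap, while 25% of all probe sets passed over these comparisons. At 1, 3 and 5 h none of the 9 differences passed in limma, and none had an unadjusted p under 0.05. At 7 h MAN7 alone among them passed, with radicle replicates at 3.94, 3.60, 3.75 and 3.92 in seeds with intact testa and 3.66, 3.81, 3.98 and 3.66 after rupture, all below the endosperm samples given above. The differences were 0.49 ± 0.10 with intact testa (adjusted p = 4.447e-05, 19.5% of all probe sets called) and 0.38 ± 0.10 with ruptured testa (adjusted p = 0.001585, 25.7% called), the second being 0.36 without the array that stood apart in root markers.

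At 10 h and 13 h MAN2 passed and MAN7 did not. The radicle was at 3.69, 4.14, 3.92 and 4.17 at 10 h, below all the endosperm samples, and the difference was 0.38 ± 0.12 (adjusted p = 0.008803, 26.7% of all probe sets called). At 13 h the endosperm was at 4.56, 4.13, 4.25 and 4.74 and the radicle at 4.19, 3.88, 4.10 and 4.11. These groups overlapped, though the difference of 0.35 ± 0.12 passed (adjusted p = 0.01577, 27.7% called). The first was lost without radicle replicate 1 (0.28). The second was lost without endosperm replicate 1 (0.30) or 4 (0.24) or radicle replicate 2 (0.29). In fits of only these arrays neither passed (adjusted p = 0.07227 and 0.09243).

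In seeds with intact endosperm at 16 h none of the 3 genes passed, nor had an unadjusted p under 0.05, where 28% of all probe sets passed. The nearest in limma was ADPG2 at 0.38 ± 0.19 (adjusted p = 0.1483). After endosperm rupture both MAN2 and ADPG2 were higher in the endosperm cap. MAN2 differed by 0.62 ± 0.12 (adjusted p = 5.982e-06), with the radicle at 4.32, 4.15, 4.29 and 4.19 and no overlap. ADPG2 differed by 1.54 ± 0.19 (adjusted p = 1.09e-10), also without overlap, at a stage where 36.1% of all probe sets differed. MAN7 was at -0.20 ± 0.10 (adjusted p = 0.09795) and passed without radicle replicate 3 (-0.26). At 10 h, 13 h and 16 h after rupture the root markers PIN2, PLT1 and PLT2 were lower in the endosperm cap than in the radicle, and EPR1, EXPA2 and the root cap marker SMB were higher.

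**Figure D3:**
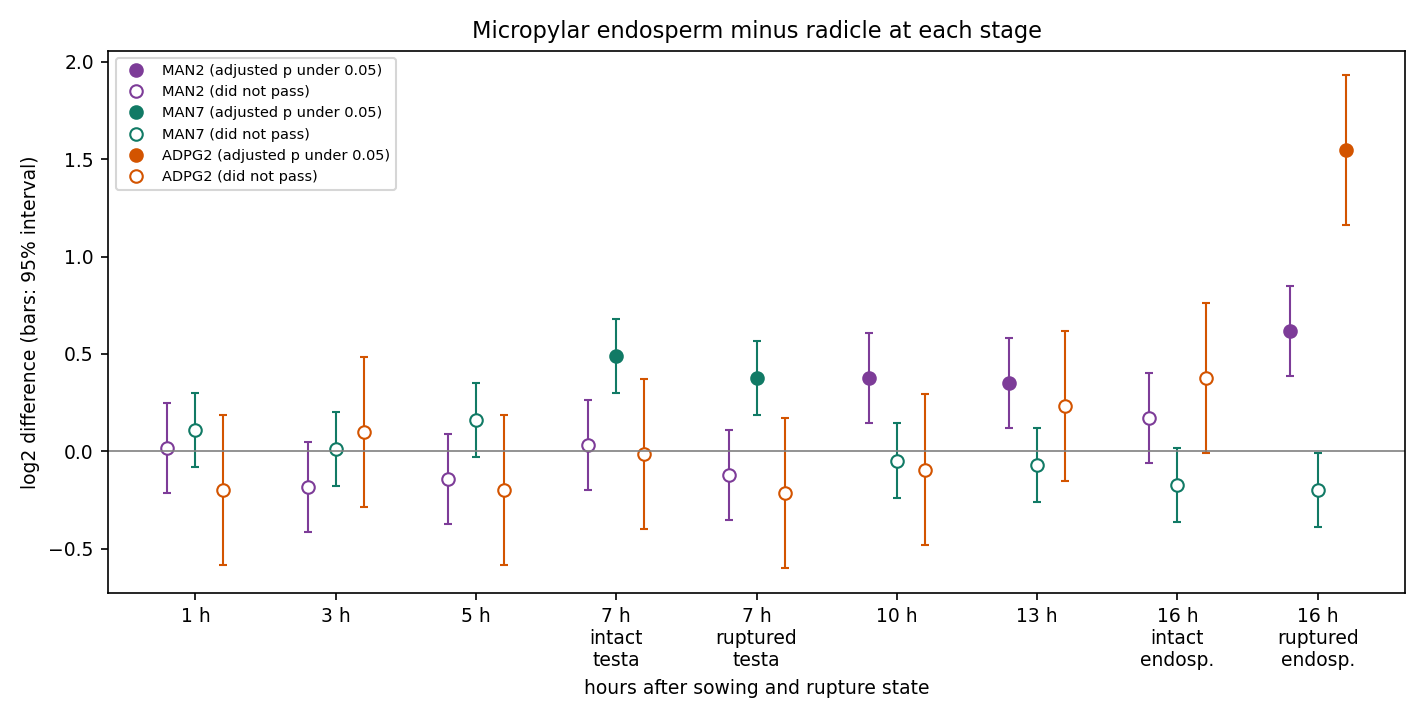
Log2 level in micropylar endosperm minus radicle at each of the 9 stages for MAN2, MAN7 and ADPG2, with 95% intervals. Filled points passed at an adjusted p under 0.05 and were MAN7 at both 7 h stages (0.49 and 0.38), MAN2 at 10 h, 13 h and 16 h after rupture (0.38, 0.35 and 0.62) and ADPG2 at 16 h after rupture (1.54).

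Among the other pairs of tissues 3 of 27 differences passed, all of them in MAN7, against 18.6% of all probe sets. Non-micropylar endosperm exceeded cotyledons by 0.48 ± 0.10 at 7 h (adjusted p = 3.58e-05, 32.6% of all probe sets called), cotyledons being at 3.84, 3.72, 3.87 and 3.71. At 13 h it exceeded them by 0.34 ± 0.10 (adjusted p = 0.003651, 24.8% called), with cotyledons at 3.75, 3.84, 3.57 and 3.74, and by 0.38 without the endosperm array that stood apart in cotyledon markers. With only these arrays in the fit the 13 h difference did not pass (adjusted p = 0.07875).

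At 13 h MAN7 was also lower in the micropylar than in the non-micropylar endosperm. The micropylar samples were at 3.63, 3.71, 4.01 and 3.75, of which only the third reached into the range of the other region, 3.95 to 4.26. The difference was -0.29 ± 0.10 (adjusted p = 0.03139, 11.1% of all probe sets called). It did not pass without micropylar replicate 1 (-0.24), 2 (-0.27) or 4 (-0.28) or non-micropylar replicate 2 (-0.23), nor in the fit of these arrays only (adjusted p = 0.1624). Without the non-micropylar array that stood apart in cotyledon markers it was -0.33 (adjusted p = 0.02455). The root markers PIN2 and SMB were higher and the shoot marker AS1 lower in the micropylar samples, and their part was not tested. Between these regions at 13 h MAN2 and ADPG2 did not pass in limma, at 0.27 (adjusted p = 0.1412) and 0.46 (adjusted p = 0.1192). MAN2 did pass without micropylar replicate 2 (0.36, adjusted p = 0.04149). Non-micropylar endosperm was not sampled at 16 h, so the rises at endosperm rupture could be set only against radicle. Radicle and cotyledons at 3 h came near the threshold, with MAN2 at 0.32 ± 0.12 (adjusted p = 0.05499) and MAN7 at 0.25 ± 0.10 (adjusted p = 0.06867). MAN2 did pass there without radicle replicate 1 (0.37) or 2 (0.37) or cotyledon replicate 1 (0.38) or 3 (0.36), and MAN7 without radicle replicate 2 (0.30) or cotyledon replicate 1 (0.35).

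Between dry seed and the first imbibed samples no difference passed for any of the genes. In whole dry seeds MAN2 was at 4.15, 3.96, 3.96 and 4.05, MAN7 at 3.75, 3.69, 3.95 and 3.72, and ADPG2 at 3.88, 4.05, 4.24 and 3.72. Of 15 differences between the dry parts or from a dry part to the first harvest of a tissue none passed in limma and none had an unadjusted p under 0.05, while 15% of all probe sets passed. The dry parts mix tissues, so these differences also hold the difference between the tissues in them.

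Over the whole course from 1 h to endosperm rupture, MAN2 and ADPG2 rose in the endosperm cap and MAN7 fell. There, 49.7% of all probe sets changed, so a call alone says little. MAN2 rose from 3.81 ± 0.20 to 4.86 ± 0.26, by 1.05 ± 0.12 (adjusted p = 6.426e-13), ADPG2 from 3.71 ± 0.20 to 5.56 ± 0.78, by 1.85 ± 0.19 (adjusted p = 6.514e-14). MAN7 fell by 0.34 ± 0.10 (adjusted p = 0.001908). Over the same course in the cap EXPA2 was called higher and EPR1 lower. Of the root markers PLT1, SCR and SMB were called, 1 of them higher and 2 lower. The part of these markers in the results was not tested.

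In radicle MAN2 changed by 0.45 ± 0.12 over the same time (adjusted p = 0.0007989, 49.3% of all probe sets called), ADPG2 by 0.10 ± 0.19 and MAN7 by -0.03 ± 0.10, neither of which passed. The change in endosperm minus the change in radicle was 1.74 ± 0.27 for ADPG2 (adjusted p = 3.075e-07) and 0.60 ± 0.16 for MAN2 (adjusted p = 0.00335), with 24.5% of all probe sets called. For MAN7 it was -0.31 ± 0.14 (adjusted p = 0.08705). It passed without radicle replicate 4 at 1 h (-0.37) or radicle replicate 3 at 16 h after rupture (-0.37). In radicle the root markers PIN2, PLT1, PLT2, SHR and SCR were called over this course, 4 of them higher and 1 lower. KAN1 rose and TT12 fell there, and the part of these markers was not tested.

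The patterns of the genes over the 27 group means were compared by Pearson's r, as a description. MAN2 and ADPG2 had an r of 0.76, which was 0.87 over the 9 stages of micropylar endosperm and 0.02 over those of radicle. The ruptured 16 h group holds the highest mean of both genes, yet its replicates did not run in parallel, since replicate 3 was the highest for MAN2 and the lowest for ADPG2. MAN7 had an r of -0.33 against MAN2, which was -0.72 over the stages of micropylar endosperm and -0.06 over those of radicle. Against ADPG2 its r was -0.43, with -0.61 and -0.60 over these stages. Of all other probe sets, 26.3% had a lower r with MAN2 than MAN7 had, and 2.19% a lower r with ADPG2. Points share arrays and their processing.

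The probe sets most like MAN2 over the 27 groups were AT4G28290 (r = 0.92) and AT3G03270 (0.91), and of the listed wall genes SOBIR1 (0.78) and ADPG2. For MAN7 they were AT4G33090 (0.88) and AT1G77720 (0.84), and of the lists KNAT6 (0.67) and NEV (0.44). For ADPG2 they were AT2G23770 (0.91) and AT2G31070 (0.91), and of the lists SOBIR1 (0.87) and MAN2. SOBIR1 was the 15th most alike to ADPG2 of all probe sets. Both had their highest group mean in micropylar endosperm with ruptured endosperm at 16 h, ADPG2 at 5.56 and SOBIR1 at 6.15. The next highest group mean of ADPG2 was 4.23. How far these r values rest on that group was not tested.

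Genes around the members were taken from lists of mannan and pectin metabolism and of cell separation. Of 69 listed loci 52 were measured, and the others were not analysed here. The 52 include MAN2, MAN7 and ADPG2 themselves. For testa rupture in micropylar endosperm, 3 of the 52 passed (5.77%, against 6.33% of all probe sets), all upward, and none of the mannanases or polygalacturonases did. AGAL2, an alpha-galactosidase, rose from 3.42, under the limit, to 5.16, a lower bound of 1.75 ± 0.20 (adjusted p = 7.745e-11). CSLA3, a mannan synthase of the CSLA family, rose by a lower bound of 0.94 ± 0.24, and PMM, the phosphomannomutase that supplies mannose sugars, by 0.78 ± 0.23. The root cap marker SMB rose at the same step, from 3.23 to 3.70, and its part in these results was not tested. Without ruptured replicate 2, the array that stood apart in root markers, AGAL2 was at 1.60 and CSLA3 at 1.00, both passing, while PMM at 0.64 did not pass (adjusted p = 0.117). PMM was also lost without replicate 3 (0.72) or 4 (0.68) of the intact group or replicate 4 (0.68) of the ruptured group, and CSLA3 without the last (0.65). In the fit of these arrays only, AGAL2 passed, and CSLA3 (adjusted p = 0.05773) and PMM (adjusted p = 0.05668) did not.

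In radicle at testa rupture 1 of the 52 passed (1.92%, against 1.71% of all probe sets). This was the pectate lyase AT1G67750, which rose by 0.76 ± 0.17. AT1G67750 did not pass without ruptured replicate 2 (0.60, adjusted p = 0.05838).

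At endosperm rupture in micropylar endosperm 4 of the 52 rose and none fell, where 3.34% of all probe sets rose and 0.964% fell. These were MAN2 as 1 of 4 measured mannanases, ADPG2 as 1 of 4 polygalacturonases, CSLA3 as 1 of 11 genes of mannan synthesis and SOBIR1 as 1 of 14 genes of cell separation signalling. MAN2 and ADPG2 are the members themselves, chosen with earlier results of these data known, so the count is not one of other genes alone. SOBIR1 is a receptor-like kinase that, in Arabidopsis, acts in floral organ shedding and in defence. It was at 4.01, 3.90, 3.73 and 3.90 with intact endosperm and at 6.16, 6.21, 5.13 and 7.13 with ruptured endosperm, a rise of 2.27 ± 0.17 (adjusted p = 1.904e-19). Its lowest ruptured sample was replicate 3 and its highest replicate 4, as for ADPG2.

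CSLA3 went from 4.30, 4.59, 3.92 and 4.00 to 4.95, 6.47, 4.98 and 5.17 at that rupture, a rise of 1.20 ± 0.24 (adjusted p = 0.0001876). Its highest group mean was earlier, at 6.55 in micropylar endosperm at 10 h. None of the 9 measured pectate lyases, 3 endoglucanases or 4 genes of mannan side chains and oligomers passed, nor did the polygalacturonase inhibitors PGIP1 (-0.61 ± 0.25) and PGIP2. The median change of the mannanases was 0.04 and that of the polygalacturonases -0.08, against -0.02 over all probe sets. In the fit of these arrays only, SOBIR1 passed (adjusted p = 0.04281) and MAN2, ADPG2 and CSLA3 did not.

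In radicle at endosperm rupture 8 of the 52 passed, all upward (15.4%, against 5.44% of all probe sets). CSLA3 was among them as in micropylar endosperm, and none of the 4 mannanases or 4 polygalacturonases was. Of 11 genes of mannan synthesis 4 rose, among them CSLA9 by 1.43 ± 0.15, CSLA7 by 0.74 ± 0.14 and CSLA3 by a lower bound of 0.93 ± 0.24, the last being lost without ruptured replicate 2 (0.78). Their list had a median of 0.36, against -0.01 over all probe sets. Of 9 pectate lyases, which cut pectin by elimination, AT3G07010 rose by 1.89 ± 0.17 and AT1G67750 by 0.89 ± 0.17. The endoglucanases GH9B1 and GH9C2 rose by 1.51 ± 0.21 and by a lower bound of 0.51 ± 0.10, and GH9C2 did not pass in the fit of these arrays only (adjusted p = 0.1093). The cotyledon and shoot marker AS1 fell at this step, from 6.73 to 5.97, and its part in these results was not tested. SOBIR1 was at 3.41 and 3.72 in radicle, and its difference there did not pass.

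**Figure D4:**
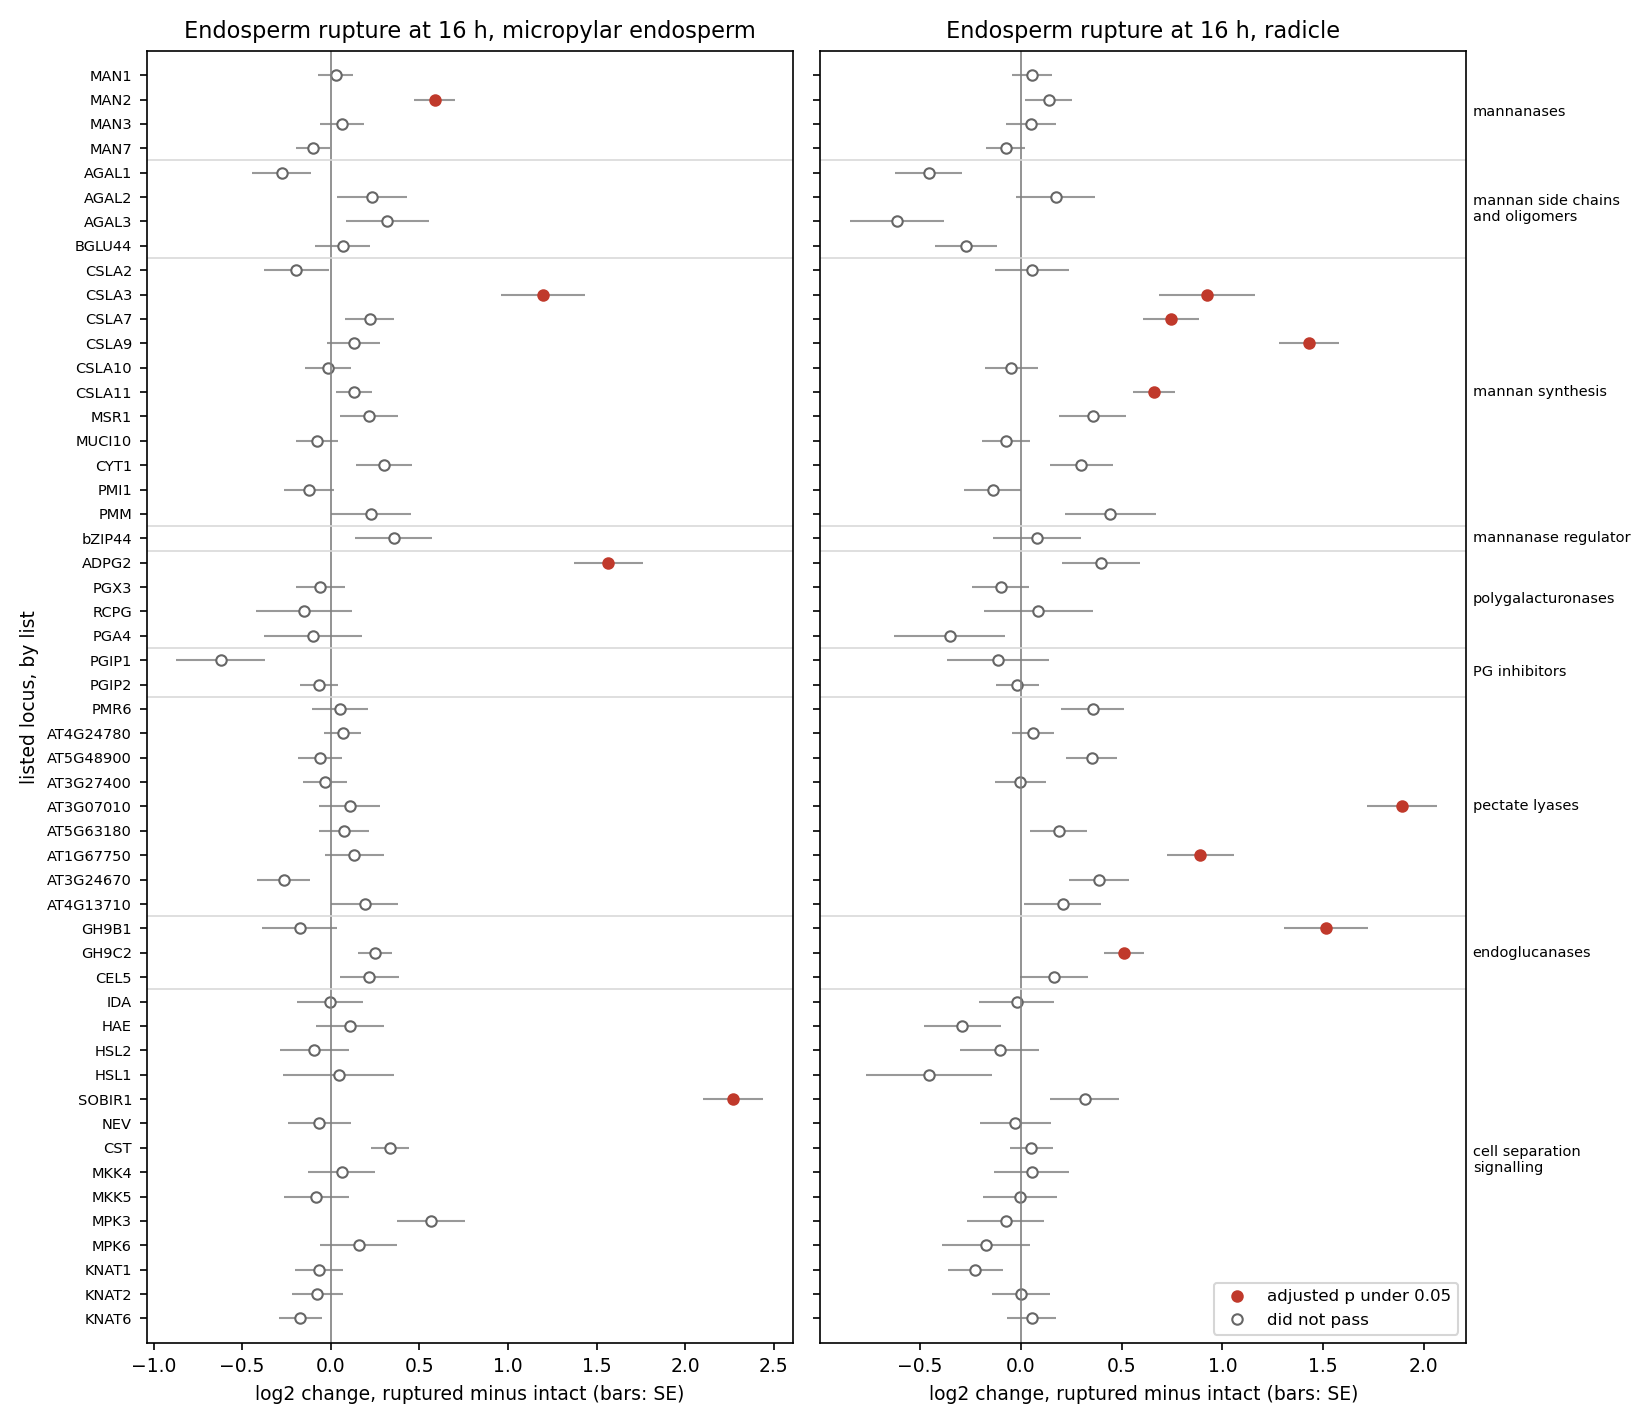
Log2 change at endosperm rupture at 16 h for the 52 measured loci of the lists in micropylar endosperm (left) and radicle (right), with limma standard errors as bars and filled points for those that passed. MAN2 (0.59), CSLA3 (1.20), ADPG2 (1.57) and SOBIR1 (2.27) passed in micropylar endosperm, while in radicle 8 loci passed, all of them upward and none of them a mannanase or polygalacturonase.

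Between the tissues after endosperm rupture, 10 of the 52 listed loci were higher in micropylar endosperm and 13 lower, against 17.5% and 18.6% of all probe sets. Higher in micropylar endosperm than in radicle were AGAL3 by 1.76 ± 0.23, AGAL2 by 1.45 ± 0.20, SOBIR1 by 2.43 ± 0.17 and the kinase MPK6 by 1.17 ± 0.22. Lower were the pectate lyases AT1G67750 (-3.30 ± 0.17) and AT3G07010 (-2.58 ± 0.17, a lower bound in size), GH9B1 (-2.58 ± 0.21), CSLA9 (-2.11 ± 0.15, a lower bound in size) and PMM (-1.84 ± 0.23). Of the 4 measured genes of mannan side chains and oligomers 2 were higher and 2 lower, and of 14 genes of cell separation signalling 3 were higher and 1 lower. Of the pectate lyases 3 of 9 were lower and none higher, and of mannan synthesis 6 of 11 were lower and 3 higher. Of the polygalacturonases ADPG2 and of the mannanases MAN2 were the only loci called, both higher.

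Over the whole course in micropylar endosperm the 4 measured mannanases went separate ways, with MAN2 higher, MAN7 lower and the others not called. MAN3 and MAN1 were above the limit in only 3 of 27 groups each. Mannan synthesis had 7 of 11 loci higher and 2 lower, where 22.5% of all probe sets were higher and 27.2% lower, with CYT1, which makes GDP-mannose, up by 2.28 ± 0.16. In radicle 9 of 11 were higher and 2 lower, where 21.3% of all probe sets were higher and 28% lower. With the compared arrays only these counts were 6 and 2, and 8 and 1. bZIP44, which in Arabidopsis regulates MAN7 in germinating seeds, rose by 1.93 ± 0.22 in micropylar endosperm and by 1.88 ± 0.22 in radicle, whereas MAN7 fell in the first and did not pass in the second.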

How the data were processed

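RNA of the samples was hybridised to 1-colour arrays. The deposited log2 values were made by the authors with RMA (affy), as the submitters' processing notes state, 1 value per probe set and array (range 2.54 to 13.0, array medians 4.04 to 4.17). Software versions, the array's design and the make-up of its probe sets are not given in the sources used here. Array replicates correlated with a median r of at least 0.9048 within groups, and no pair of arrays was alike beyond 0.9898. The number of arrays limits the precision.

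A limma model (limma 3.58.1, R 4.3.3) with a mean per group was fitted to all 13895 probe sets, with 80 residual and 6.04 prior degrees of freedom. In each of 54 comparisons p-values were adjusted over all probe sets (threshold 0.05). Changes from or to a mean under 3.59 are lower bounds. The model was run on simulated data in which the noise of each probe set was equal in all groups. That run could not test calls where the spread differs between groups, as for ADPG2 at endosperm rupture. Replicate numbers did not pair samples, so no block entered. The alternatives tried were robust moderation with an intensity trend, removal of 748 dim probe sets, quantile normalization, centring on brighter probe sets, array weights, a replicate block, fits of the compared arrays only, and leaving out single arrays. The members, lists and markers were chosen with earlier results of these data known. Besides the members, each list names at most its 3 passing loci with the largest change per comparison, and each member its 2 most alike probe sets of all and of the lists, exceptions being named as values only. Symbols come from the lists, not the files. No sequence was used here.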

Additional observations from a re-analysis of the deposited data

Results flagged for a closer look

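Over the 3 genes and the 26 groups of 4 replicates, 78 sets of values were looked at, of which 3 had a sample far from the others, and chance flags about 1 in 20. MAN2 was at 4.12 in cotyledon replicate 4 at 13 h, where the nearest other replicate was at 4.03 and the farthest at 4.02. MAN7 was at 3.49 in micropylar endosperm replicate 4 with ruptured endosperm at 16 h, below the limit of 3.59, while the other replicates ran from 3.61 to 3.63. ADPG2 was at 3.52 in radicle replicate 2 with ruptured testa at 7 h, while the others ran from 3.96 to 4.02.

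The change at endosperm rupture differed between micropylar endosperm and radicle for ADPG2, by 1.17 ± 0.27 in the limma interaction (adjusted p = 0.004071). Over the course from 1 h to endosperm rupture, the changes in these tissues differed by 0.60 ± 0.16 for MAN2 (adjusted p = 0.00335) and by 1.74 ± 0.27 for ADPG2 (adjusted p = 3.075e-07).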

How the results depend on the processing

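No called change of MAN2, MAN7 or ADPG2 reversed its direction under any alternative run. An intensity trend with robust moderation, removal of dim probe sets and the replicate block changed no call of the members. Same-numbered samples were not paired, with a median r of -0.0004249 against -0.0005849 for other numbers, no comparison of 45 with all pairs above 0.1, and 27 arrays in all closest to their own number. With only the arrays of each comparison, 2 of 24 steps passed in micropylar endosperm instead of 5, 0 instead of 1 in radicle, 1 instead of 3 among the other tissue pairs and 0 instead of 1 among the differences of steps. These fits have fewer samples and their own spread. Differences of steps came to 2 with quantile normalization, which added MAN7 from 7 h ruptured to 10 h (-0.44, adjusted p = 0.04512), and to 3 with array weights, which added it (-0.39) and MAN2 (0.53). The cause was not tested. Quantile normalization also brought the MAN7 difference over the whole course past the threshold (-0.35), and centring MAN2 in radicle minus cotyledons at 3 h (0.33). Leaving out single arrays gave 3 to 5 calls of steps in micropylar endosperm, 0 to 1 in radicle, 1 to 2 in the other tissues, 5 to 7 between micropylar endosperm and radicle, 2 to 5 between the other tissue pairs, 0 from dry seed, 1 to 2 among differences of steps and 6 to 7 over the whole course. ADPG2 kept its side of the threshold in 498 of 498 such refits, MAN2 in 485 and MAN7 in 484. Of the counts over all probe sets, array weights raised those for micropylar endosperm from 1095 to 2422 (5 h to 7 h), 880 to 2328 (testa rupture) and 440 to 1803 (7 h to 10 h), for radicle from 237 to 637 (testa rupture) and 756 to 1403 (endosperm rupture), and between them at 7 h intact from 2712 to 4728. The compared arrays only gave 1690 instead of 1095 at 5 h to 7 h, 30 instead of 598 and 266 instead of 756 at endosperm rupture in the cap and the radicle, 1512 instead of 3171 for radicle at 1 h to 3 h, 2064 instead of 3451 for non-micropylar endosperm minus cotyledons at 13 h, and 41 instead of 370 for the difference at endosperm rupture. Probe-level background correction and slide blocks were not run, since the values are already summarised.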

Other observations

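Of the mannanases that were not members, MAN1 (AT1G02310) stood out by its place. It was at 5.03 ± 0.13 (SD, n = 4) in non-micropylar endosperm at 3 h, with arrays from 4.91 to 5.21, and at 3.12 to 3.72 in the means of every other group. By 7 h it was at 3.43 ± 0.07 in that tissue, under the limit of 3.59. It was singled out after its values were seen.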
